A study of Mus musculus with 11 samples.

Results

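The enzymes of cholesterol and fatty acid synthesis, with the factors that set their transcription, were examined in cultured fetal lung mesenchymal cells with and without Sp3, a transcription factor that binds GC boxes in promoters. The set held 29 genes chosen by symbol, out of 24062 genes listed, and all 29 were counted in every library and passed the filter on low values. Primary mesenchymal cells were isolated from mouse lungs at embryonic day 15 (E15) by adhesion to plastic, passaged, and profiled by RNA-seq in 11 libraries. These were 4 wild-type (WT, *Sp3+/+*), 4 *Sp3+/-* and 3 *Sp3-/-* libraries, with no treatment named for any group. The null allele was carried in the germline from intercrosses of heterozygous mice, so the deletion was not limited to a cell type. The labels do not state whether each library came from a separate embryo, so p-values measure the spread between libraries.

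Cholesterol is built from acetyl-CoA through the mevalonate pathway to farnesyl diphosphate, through squalene to lanosterol, and then by a series of demethylations, reductions and isomerisations to cholesterol. Most of these enzymes are transcribed under SREBP2, encoded by *Srebf2*, and the enzymes of fatty acid synthesis and desaturation under SREBP1, encoded by *Srebf1*. Both are held in the endoplasmic reticulum by Insig proteins when sterols are plentiful and are released by proteolysis when sterols fall. The liver X receptors respond instead to oxysterols and induce genes of sterol export. Sp factors and NF-Y are known partners of SREBPs at sterol-responsive promoters, and in the fetal lung lipid-laden fibroblasts pass lipid to the epithelium for surfactant.

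Promoter windows from RefSeq (GRCm38.p6, the build named mm10 in the processing notes) were found for 23 of the 29 genes, from 250 bases before to 50 bases after each start. No window was found for *Scd1*, *Scd2*, *Sqle*, *Fdft1*, *Fdps* and *Stard4*. The 4 stretches below run 5′ to 3′ over the 250 bases before the start, with capitals for GC boxes (GGGCGG or CCGCCC) and, in *Hmgcs1* only, for the sterol regulatory element TCACNCCAC. *Hmgcs1* was the only matched gene whose window held that string of letters, at 137 bases before the start. Variants of the string were not searched. *Insig1* is shown as the gene with the lowest adjusted p in *Sp3-/-* against WT, *Mylip* as the only gene that rose in that comparison, and *Srebf2* as the regulator with 4 GC boxes in the stretch, and these 3 were picked after their values were seen. All 4 lie on the plus strand, *Hmgcs1* at chr13:119690101-119690350, *Insig1* at chr5:28071162-28071411, *Mylip* at chr13:45389492-45389741 and *Srebf2* at chr15:82147019-82147268.
Hmgcs1: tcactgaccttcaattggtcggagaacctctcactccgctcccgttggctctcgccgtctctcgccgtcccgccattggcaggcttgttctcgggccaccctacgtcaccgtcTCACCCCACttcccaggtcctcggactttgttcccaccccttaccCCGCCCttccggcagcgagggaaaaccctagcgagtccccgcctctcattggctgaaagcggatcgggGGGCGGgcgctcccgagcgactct
Insig1: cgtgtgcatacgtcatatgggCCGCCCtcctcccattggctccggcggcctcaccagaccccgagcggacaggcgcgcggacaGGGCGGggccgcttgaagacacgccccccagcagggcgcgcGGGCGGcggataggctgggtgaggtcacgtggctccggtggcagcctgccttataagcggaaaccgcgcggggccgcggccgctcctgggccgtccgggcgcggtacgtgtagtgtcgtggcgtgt
Mylip: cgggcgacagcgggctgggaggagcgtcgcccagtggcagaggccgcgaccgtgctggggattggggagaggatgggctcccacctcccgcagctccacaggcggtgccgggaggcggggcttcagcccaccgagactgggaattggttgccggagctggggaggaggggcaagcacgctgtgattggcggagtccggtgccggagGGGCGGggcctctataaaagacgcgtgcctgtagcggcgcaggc
Srebf2: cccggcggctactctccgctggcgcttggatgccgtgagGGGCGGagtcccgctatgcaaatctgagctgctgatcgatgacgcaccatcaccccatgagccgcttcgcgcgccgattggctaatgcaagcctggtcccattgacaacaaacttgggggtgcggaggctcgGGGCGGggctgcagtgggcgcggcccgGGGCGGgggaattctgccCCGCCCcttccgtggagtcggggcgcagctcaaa

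Between 9849111 and 59297495 reads per library were counted on genes, and values for single libraries are counts scaled to a common library size (CPM) after TMM normalisation. They are given in the order 468-4, 685-2, 697-1 and 697-3 for WT, 468-3, 685-5, 685-7 and 697-4 for *Sp3+/-*, and 685-1, 697-2 and 697-5 for *Sp3-/-*. *Sp3* was at 92.1, 61.3, 108 and 78.7 CPM in WT, 52.4, 62.5, 70.8 and 56.4 CPM in *Sp3+/-* and 18.7, 17.9 and 14.8 CPM in *Sp3-/-*. The *Sp3-/-* libraries lay below all others (log2 fold change -2.30, SE 0.211, adjusted p = 0.00611 against WT by the quasi-likelihood test of edgeR, adjusted over all genes after Benjamini and Hochberg, as throughout), and the counts do not show which part of the gene the remaining reads cover. The title of a library may end in a further number, 2 or 3, called its suffix here, whose meaning is not given. WT library 468-4, *Sp3+/-* library 697-4 and all 3 *Sp3-/-* libraries (685-1, 697-2 and 697-5) have no suffix, and the other 6 have one, so genotype and suffix are nearly confounded. The labels of 697-4 disagree, since its title has no suffix but the name of its deposited table carries a 2. The title was used, and where nothing else is said suffix means that of the title. The 10 mesenchymal markers summed to between 21388 and 22949 CPM in the 6 suffixed libraries, to 13639 CPM in 468-4 and to 15631 CPM in 697-4. In *Sp3-/-* they summed to 20609 CPM in 685-1, 14141 CPM in 697-2 and 7963 CPM in 697-5, the lowest of the 11. Epithelial markers summed to between 24.6 and 177 CPM, endothelial markers to between 29.7 and 76.1 CPM and mesothelial markers to between 515 and 4109 CPM, with *Sp3-/-* 685-1 the highest of the 11 libraries for epithelial and mesothelial markers. The 12 macrophage markers, none at 0, summed to between 406 and 959 CPM in the 6 suffixed libraries, to between 3337 and 3616.5 CPM in 468-4, 697-4 and 685-1, and to 12358 and 11495 CPM in *Sp3-/-* 697-2 and 697-5. In bulk RNA, fewer cells of a type and less RNA per cell cannot be told apart.

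To ask what the loss of both *Sp3* alleles did to lipid synthesis genes, the 3 *Sp3-/-* libraries were compared with the 4 WT libraries. Genes from each stage of sterol synthesis and from fatty acid synthesis were lower in *Sp3-/-* cells. Of the 29 genes, 15 fell and 1, *Mylip*, rose (adjusted p below 0.05), against a background of 18.5% of all 14025 genes tested (2599 genes). The log2 fold change was negative for 25 of the 29, with a median of -0.82, beside a median of -0.00316 over all genes tested. CPM ranges did not overlap for 17 of the 29, of which 14 were lower and 3 higher in *Sp3-/-*, against 31.6% of all genes tested.

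The number of calls rested on single libraries. Leaving out 1 *Sp3-/-* library gave 0 calls of 29 by edgeR without 697-2 (18 at an unadjusted p below 0.05), 2 without 697-5 and 19 without 685-1, against 2.01%, 10.1% and 16% of all genes. Leaving out 1 WT library gave 2 calls without 685-2, 3 without 697-1, 2 without 697-3 and 21 without 468-4, against 6.39%, 5.48%, 5.74% and 29.9% of all genes. The median stayed between -1.04 and -0.69 in these 7 fits. With the title suffix as a covariate in a fit of all 11 libraries, 3 of the 29 passed, *Fdps*, *Insig1* and *Mylip*, against 9.41% of all genes, and the median was -0.38. These calls rested on the suffix given to 697-4. With the 2 of its table name in place of its title, a fit chosen after seeing the data, edgeR called 0 of the 29 (3 at an unadjusted p below 0.05) against 1.15% of all genes, with a median of -0.29. In that fit *Fdps* was at -0.83 (SE 0.267, adjusted p = 0.163), *Insig1* at -0.92 (SE 0.274, adjusted p = 0.138) and *Mylip* at 1.24 (SE 0.382, adjusted p = 0.146).

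**Figure D1:**
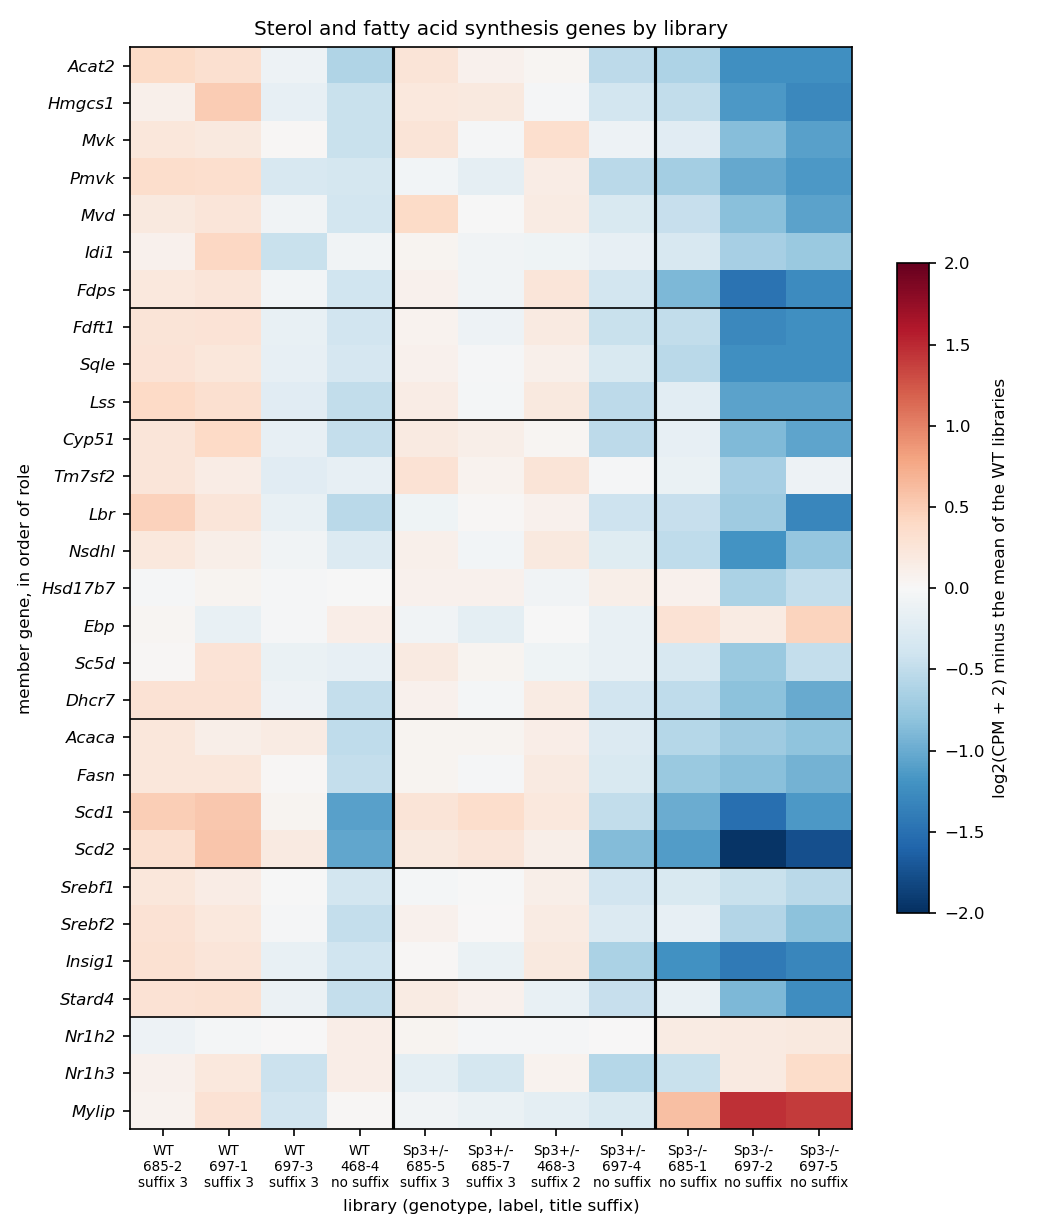
Level of each of the 29 genes (rows, in order of role) in each library (columns, by genotype and title suffix), as log2(CPM + 2) minus the mean of the 4 WT libraries, blue for lower and red for higher. Most rows are bluest in *Sp3-/-* 697-2 and 697-5, paler in *Sp3-/-* 685-1, and also pale blue in WT 468-4 and *Sp3+/-* 697-4, while *Mylip* is red in all 3 *Sp3-/-* libraries.

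The mevalonate steps, from acetyl-CoA to farnesyl diphosphate, had 5 of 7 genes lower and none higher. *Fdps*, farnesyl diphosphate synthase (chr3:89093588-89101967), was at 53.1, 81.9, 84.1 and 68.1 CPM in WT, 84.3, 75.4, 67.0 and 54.7 CPM in *Sp3+/-* and 36.9, 24.1 and 28.4 CPM in *Sp3-/-*. All 3 *Sp3-/-* libraries lay below every other library, with means of 29.8 ± 6.53 CPM (SD, n = 3) and 71.8 ± 14.3 CPM (SD, n = 4) in WT (log2 fold change -1.26, SE 0.207, adjusted p = 0.0132). With the suffix covariate the change was -0.89 (SE 0.187, adjusted p = 0.0256), and the call held in 6 of the 7 fits without 1 library, failing without 697-2.

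*Hmgcs1*, HMG-CoA synthase, an early enzyme of the pathway, was at 244, 359, 474 and 296 CPM in WT, 328, 385, 379.7 and 258 CPM in *Sp3+/-* and 236, 149 and 135 CPM in *Sp3-/-*. The *Sp3-/-* library 685-1 stood just below the lowest WT library, and the other 2 far below (log2 fold change -0.98, SE 0.28, adjusted p = 0.049). *Acat2*, the cytosolic thiolase that begins the pathway, was at 24.1, 49.3, 47.3 and 34.5 CPM in WT, 38.3, 45.1, 39.6 and 25.3 CPM in *Sp3+/-* and 23.6, 14.8 and 14.9 CPM in *Sp3-/-*. Here too 685-1 lay close to the suffix-free WT library 468-4, and the genotypes did not overlap (log2 fold change -1.12, SE 0.291, adjusted p = 0.0388). The phosphorylating enzymes differed in their calls. *Pmvk*, phosphomevalonate kinase, was at 16.1, 27.3, 27.0 and 16.4 CPM in WT, 23.5, 20.2, 18.3 and 13.8 CPM in *Sp3+/-* and 12.4, 9.40 and 8.40 CPM in *Sp3-/-* and fell (log2 fold change -1.09, SE 0.26, adjusted p = 0.0307). *Mvk*, mevalonate kinase, was at 29.8, 49.1, 47.8 and 42.2 CPM in WT, 53.1, 50.0, 40.7 and 38.4 CPM in *Sp3+/-* and 35.3, 22.1 and 18.5 CPM in *Sp3-/-*. Its *Sp3-/-* library 685-1 lay above WT 468-4, and the difference did not pass (log2 fold change -0.73, adjusted p = 0.0844).

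*Mvd*, mevalonate diphosphate decarboxylase, was at 40.2, 60.4, 62.8 and 49.9 CPM in WT, 59.2, 68.8, 52.5 and 42.4 CPM in *Sp3+/-* and 37.5, 28.5 and 23.9 CPM in *Sp3-/-* and fell, with no overlap between WT and *Sp3-/-* (log2 fold change -0.82, SE 0.206, adjusted p = 0.035). *Idi1*, isopentenyl diphosphate isomerase, was counted at only 0.72 to 4.06 CPM, and its difference did not pass (log2 fold change -1.25, adjusted p = 0.0938). Its near copy *Idi2* lies beside it, so reads shared by both could be missing from this count. In the fit with the suffix covariate *Acat2*, *Hmgcs1*, *Pmvk* and *Mvd* changed by -0.47, -0.51, -0.69 and -0.42 on the log2 scale and none of them passed.

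Of the 3 enzymes from farnesyl diphosphate to lanosterol, 2 fell. *Fdft1*, squalene synthase, the committed step to sterols, was at 72.0, 113, 115 and 85.6 CPM in WT, 108, 99.8, 88.0 and 69.2 CPM in *Sp3+/-* and 67.0, 37.7 and 39.3 CPM in *Sp3-/-*. *Sqle*, squalene epoxidase, a rate-limiting enzyme of the later pathway, was at 126, 193, 186 and 141 CPM in WT, 171, 169.7, 156 and 128 CPM in *Sp3+/-* and 109, 67.1 and 66.6 CPM in *Sp3-/-*. In both genes 697-2 and 697-5 were nearly alike, and 685-1 stood between them and WT (log2 fold change -1.001, SE 0.256, adjusted p = 0.0371 for *Fdft1*, and log2 fold change -0.99, SE 0.231, adjusted p = 0.0296 for *Sqle*). *Lss*, lanosterol synthase, ranged from 33.4 to 62.4 CPM in *Sp3-/-* and from 51.1 to 96.4 CPM in WT, and did not pass (log2 fold change -0.79, adjusted p = 0.106). *Fdft1* overlaps *Ctsb* in RefSeq, and as the strand setting of the counting is not stated, reads of overlapping genes could be shared or dropped. The same holds for *Tm7sf2* (with *Vps51*), *Acaca* (with *Tada2a* and *Gm11437*), *Srebf1* (with *Rai1*) and *Nr1h3* (with *Acp2*).

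The 8 enzymes from lanosterol to cholesterol were the most mixed group, with 3 lower, none higher and 1 positive fold change. *Nsdhl*, which removes methyl groups at carbon C4 with its partners, was at 40.9, 58.2, 54.4 and 47.5 CPM in WT, 57.2, 53.7, 47.9 and 42.0 CPM in *Sp3+/-* and 34.4, 20.7 and 28.5 CPM in *Sp3-/-* and fell (log2 fold change -0.85, SE 0.194, adjusted p = 0.0277). *Sc5d*, lathosterol desaturase, was at 109, 123, 148 and 111 CPM in WT, 114, 138, 126 and 109 CPM in *Sp3+/-* and 97.4, 72.0 and 87.4 CPM in *Sp3-/-* and fell by a smaller amount (log2 fold change -0.52, SE 0.146, adjusted p = 0.047). *Dhcr7*, the reductase of the final step, was at 31.8, 56.0, 55.8 and 41.9 CPM in WT, 50.6, 47.8, 43.8 and 34.2 CPM in *Sp3+/-* and 31.2, 24.8 and 21.4 CPM in *Sp3-/-*. Its 685-1 value sat just under that of WT 468-4 (log2 fold change -0.83, SE 0.231, adjusted p = 0.0452).

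*Ebp*, the sterol isomerase that comes just before *Sc5d*, went the other way. It was at 32.1, 30.2, 26.0 and 28.7 CPM in WT, 29.1, 27.8, 25.2 and 26.2 CPM in *Sp3+/-* and 36.2, 32.8 and 40.5 CPM in *Sp3-/-*, and every *Sp3-/-* library lay above every other library, though the difference from WT did not pass (log2 fold change 0.32, SE 0.11, adjusted p = 0.0758). The remaining 4 did not pass either, with log2 fold changes of -0.89 for *Lbr*, -0.69 for *Cyp51*, -0.35 for *Tm7sf2* and -0.32 for *Hsd17b7*. *Lbr* and *Tm7sf2* both encode sterol C14 reductases, *Cyp51* the lanosterol demethylase and *Hsd17b7* a 3-ketosteroid reductase. *Lbr* is also a nuclear envelope protein. *Hsd17b7* varied little across the 8 *Sp3*-carrying libraries (79.0 to 90.0 CPM) and in *Sp3-/-* 685-1 (87.5 CPM), but was at 52.9 and 58.6 CPM in 697-2 and 697-5.

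All 4 genes of fatty acid synthesis and desaturation fell. *Scd2*, the stearoyl-CoA desaturase of embryonic and neural tissue (chr19:44293676-44306864), was at 772, 1969.9, 2318 and 1785 CPM in WT, 1715, 1808, 1876 and 869.8 CPM in *Sp3+/-* and 727, 404 and 467 CPM in *Sp3-/-*. It had the largest fold change of the 29, to 0.312 of the WT level (log2 fold change -1.68, SE 0.395, adjusted p = 0.0302), but the suffix-free libraries WT 468-4 and *Sp3+/-* 697-4 stood apart from the rest of their genotypes and close to *Sp3-/-* 685-1. Its change shrank to -0.65 with the suffix covariate (SE 0.259, adjusted p = 0.142). *Scd1*, the desaturase of liver and fat, was at 136, 406, 419.9 and 299.8 CPM in WT, 336, 347, 368 and 205 CPM in *Sp3+/-* and 144, 101 and 129 CPM in *Sp3-/-*. Its 685-1 value was above that of WT 468-4, so the genotypes overlapped although the gene passed (log2 fold change -1.34, SE 0.377, adjusted p = 0.0477), and with the suffix covariate the change was -0.38 and did not pass. The desaturases are close paralogues, so short reads shared by both could be split between them or dropped.

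*Fasn*, fatty acid synthase, was at 385, 630.2, 632 and 543 CPM in WT, 606, 558, 529 and 435 CPM in *Sp3+/-* and 321, 299 and 278 CPM in *Sp3-/-*. Its *Sp3-/-* libraries were tight, at 299 ± 21.6 CPM (SD, n = 3) against 548 ± 116 CPM (SD, n = 4) in WT (log2 fold change -0.87, SE 0.186, adjusted p = 0.024). It was -0.48 in the fit with the suffix covariate and just missed the threshold (adjusted p = 0.052). *Acaca*, acetyl-CoA carboxylase, which commits acetyl-CoA to fatty acids, was at 30.9, 52.4, 48.5 and 50.0 CPM in WT, 49.1, 46.4, 46.5 and 36.7 CPM in *Sp3+/-* and 29.2, 26.4 and 24.6 CPM in *Sp3-/-*. It also fell without overlap (log2 fold change -0.76, SE 0.19, adjusted p = 0.035).

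Among the regulators, *Insig1* fell and the SREBP genes did not pass. *Insig1*, which retains SREBPs and is itself an SREBP target, was at 176, 287, 277 and 211 CPM in WT, 267, 236, 212 and 151 CPM in *Sp3+/-* and 99.4, 85.9 and 93.0 CPM in *Sp3-/-*. The 3 *Sp3-/-* libraries lay close together at 92.8 ± 6.75 CPM (SD, n = 3) and far below WT at 238 ± 53.4 CPM (SD, n = 4), with a ratio of 0.391 (log2 fold change -1.35, SE 0.187, adjusted p = 0.00979). The change was -0.92 with the suffix covariate (SE 0.145, adjusted p = 0.0111). Its call held in 6 of the 7 fits without 1 library and missed the threshold only without 697-2, where the adjusted p was 0.050001.

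*Srebf2* was at 143, 242, 229 and 195 CPM in WT, 222, 211, 199 and 164 CPM in *Sp3+/-* and 177, 131 and 111 CPM in *Sp3-/-*. The *Sp3-/-* library 685-1 lay inside the WT range, and the difference was -0.53 (SE 0.223, adjusted p = 0.129). *Srebf1*, counted over all of its isoforms, was at 88.1, 134, 128 and 114 CPM in WT, 125, 111, 114 and 87.3 CPM in *Sp3+/-* and 92.3, 83.9 and 78.1 CPM in *Sp3-/-* (log2 fold change -0.45, SE 0.154, adjusted p = 0.0771). With the suffix covariate both differences were nearer to 0, at -0.14 for *Srebf2* and -0.10 for *Srebf1*. *Stard4*, a carrier of sterol between membranes and an SREBP2 target, ranged from 19.8 to 44.8 CPM in *Sp3-/-* and from 35.2 to 61.7 CPM in WT (log2 fold change -0.75, adjusted p = 0.126).

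**Figure D2:**
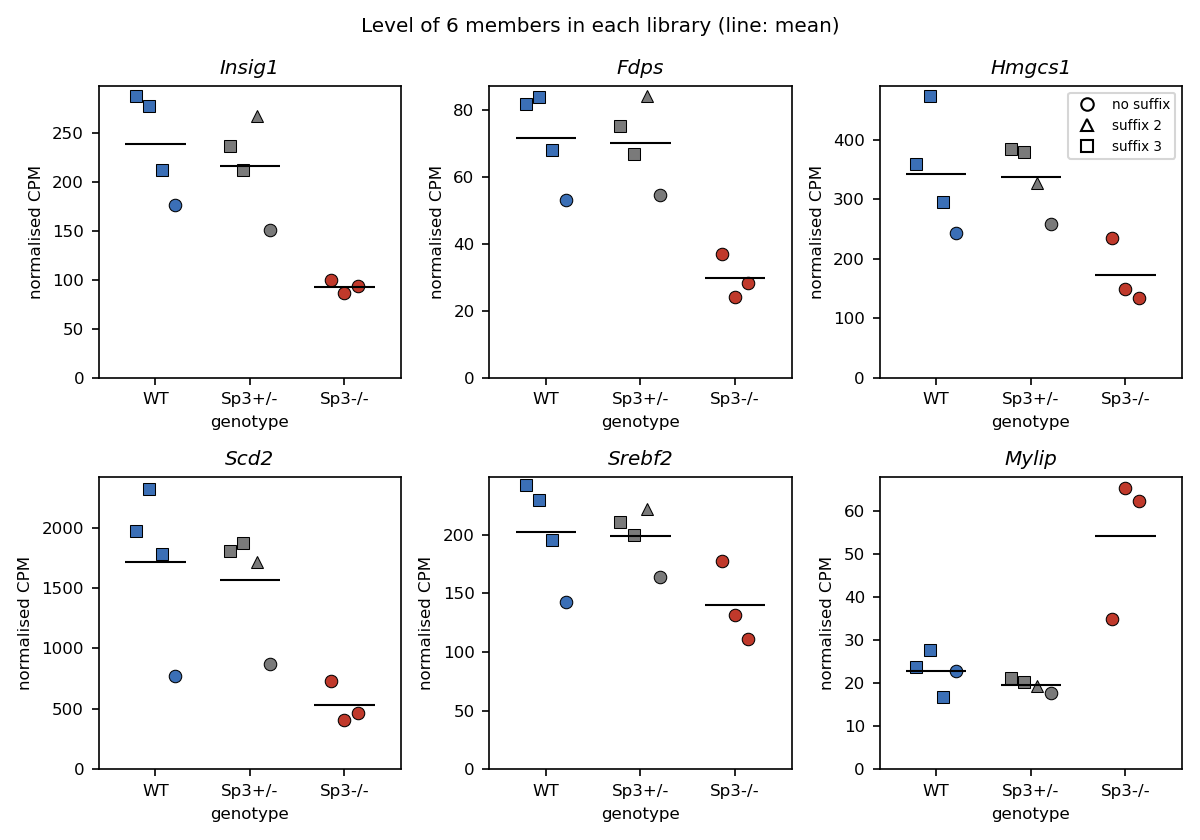
CPM of 6 genes in each library, by genotype (colour) and title suffix (symbol), with a line at the mean and each axis starting at 0. *Insig1* and *Fdps* are lower in all 3 *Sp3-/-* libraries than in any other, *Hmgcs1*, *Scd2* and *Srebf2* have 685-1 close to or among the suffix-free *Sp3*-carrying libraries, and *Mylip* is higher in all 3.

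In the group of the liver X receptors and their target 1 of 3 genes rose and none fell. *Mylip* encodes the E3 ligase IDOL, which is induced by liver X receptors and sends lipoprotein receptors for degradation. It was at 22.9, 23.8, 27.8 and 16.7 CPM in WT, 19.4, 21.3, 20.2 and 17.8 CPM in *Sp3+/-* and 35.0, 65.5 and 62.4 CPM in *Sp3-/-*. All 3 *Sp3-/-* libraries lay above every other library, 697-2 and 697-5 at about the same level and 685-1 nearer to WT, and the rise was 2.39-fold (log2 fold change 1.26, SE 0.257, adjusted p = 0.0219). With the suffix covariate it was 1.32 (SE 0.314, adjusted p = 0.036). The rise was called in 3 of the 7 fits without 1 library, with log2 fold changes from 1.09 to 1.49, and was not called without WT 685-2 or 697-3 or without *Sp3-/-* 697-2 or 697-5.

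*Nr1h2*, the liver X receptor present in most tissues, was at 75.1, 63.6, 67.0 and 69.1 CPM in WT, 67.7, 71.6, 67.8 and 68.9 CPM in *Sp3+/-* and 76.9, 77.8 and 79.2 CPM in *Sp3-/-*. Its *Sp3-/-* libraries lay narrowly above WT and the difference did not pass (log2 fold change 0.19, SE 0.0842, adjusted p = 0.148). *Nr1h3*, the receptor of macrophages, liver and fat, was at 6.52, 6.22, 6.94 and 3.76 CPM in WT, 6.17, 4.79, 4.04 and 3.23 CPM in *Sp3+/-* and 3.67, 6.82 and 7.99 CPM in *Sp3-/-*, with overlapping genotypes (log2 fold change 0.07, SE 0.33, adjusted p = 0.895).

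**Figure D3:**
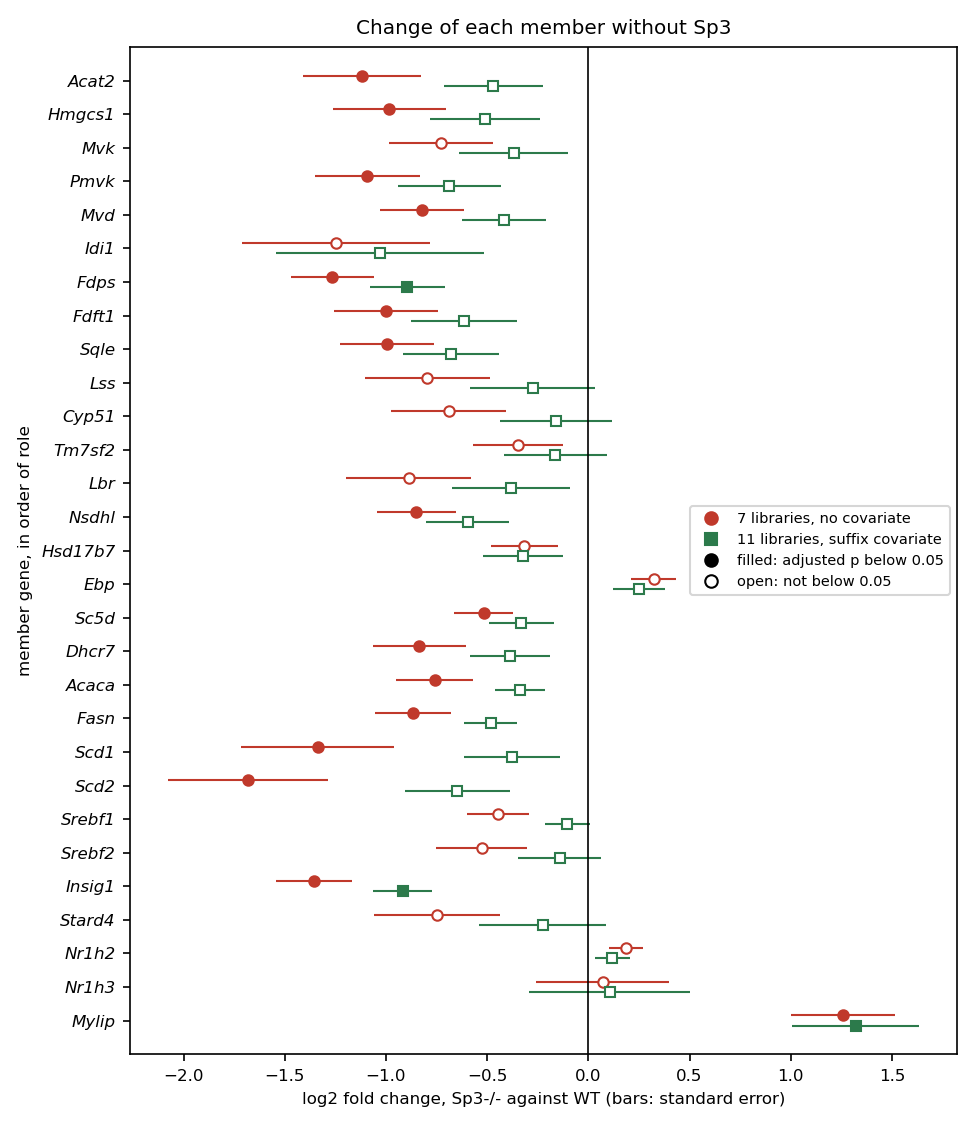
Log2 fold change of each gene, *Sp3-/-* against WT, with its standard error as a bar, from the 7 libraries without a covariate (red circles) and from all 11 with the title suffix as a covariate (green squares), filled where the adjusted p was below 0.05. Of the 16 filled circles 3 are also filled squares, *Fdps*, *Insig1* and *Mylip*, and most green squares lie nearer to 0 than the red circles.

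The title suffix moved with these genes within the *Sp3*-carrying libraries too. In 22 of the 29 genes both suffix-free libraries, WT 468-4 and *Sp3+/-* 697-4, lay below all 6 suffixed libraries, and in none did both lie above them. Among the suffix-free libraries alone, *Sp3-/-* 685-1 lay below both in 15 genes, above both in 8 and between them in 6. Neither these counts nor that of 22 genes were made over all genes. Whether they are particular to the 29 was not tested. The ratio of 685-1 to the mean of 468-4 and 697-4 was 0.609 for *Insig1*, 0.685 for *Fdps*, 0.783 for *Fasn*, 0.886 for *Scd2* and 0.940 for *Hmgcs1*. It was 1.16 for *Srebf2*, 1.24 for *Ebp*, 1.27 for *Stard4* and 1.72 for *Mylip*. In this single trio *Insig1* and *Fdps* had the lowest ratios of the 29 and *Mylip* the highest. A fit of the suffix-free libraries only, 3 *Sp3-/-* against 1 WT, called 0 of 29 genes (3 at an unadjusted p below 0.05) and 0 of all genes (1337), with a median of -0.30 over the 29. The lone WT library is assumed there to vary as the *Sp3-/-* libraries do.

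Within *Sp3-/-*, 24 of the 29 genes were highest in 685-1, a count also not made over all genes. The mean over the 29 genes of log2(CPM + 2) minus the WT mean was -0.40 in 685-1, beside -0.79 in 697-2 and -0.78 in 697-5, and beside -0.36 in WT 468-4 and -0.34 in *Sp3+/-* 697-4. In the 6 suffixed libraries it lay between -0.11 and 0.25. The libraries fell in the same 3 groups by the sum of the 12 macrophage markers, all 12 of which were positive in *Sp3-/-* against WT and 5 of which rose. Lipid storage markers, some of which macrophages also express, summed to between 225 and 261 CPM in the suffixed libraries, to 675 and 447 CPM in 468-4 and 697-4 and to between 553 and 1314 CPM in *Sp3-/-*. Cycling markers summed to between 404 and 670 CPM in the suffixed libraries and to between 188 and 367 CPM in the suffix-free ones. Suffix and genotype can be told apart only through 468-4 and 697-4, or through 468-4 alone if the table name of 697-4 holds, and the part of macrophage RNA and of cycling in the lower lipid synthesis genes was not tested.

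**Figure D4:**
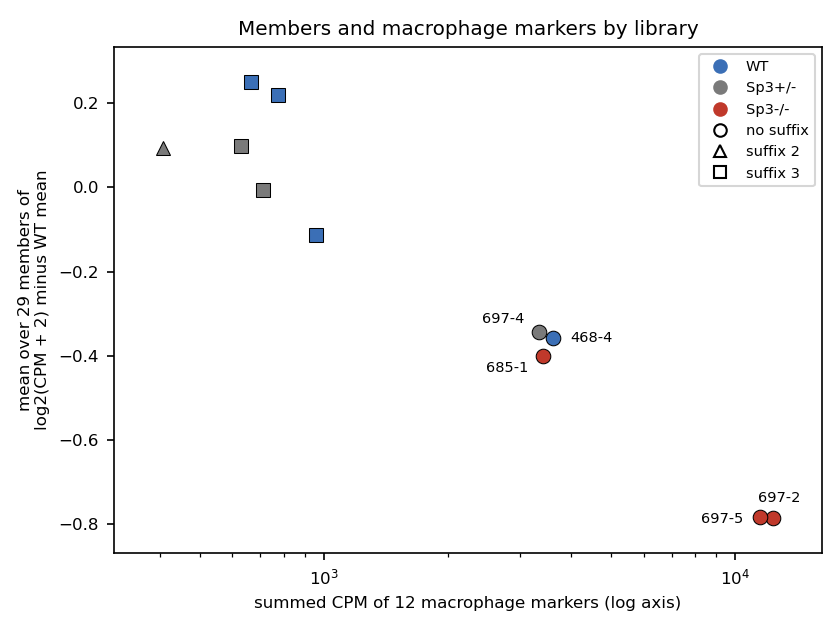
For each library, the mean over the 29 genes of log2(CPM + 2) minus the WT mean (vertical) against the summed CPM of 12 macrophage markers (horizontal, log axis), coloured by genotype and with a symbol for the title suffix. The 6 suffixed libraries lie at upper left, WT 468-4, *Sp3+/-* 697-4 and *Sp3-/-* 685-1 lie together near -0.36, -0.34 and -0.40, and *Sp3-/-* 697-2 and 697-5 lie at lower right.

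To ask whether 1 allele sufficed, the 4 *Sp3+/-* libraries were compared with the 4 WT libraries. None of the 29 genes passed, none was under an unadjusted p of 0.05, and none was without overlap. This stood against a background of 0% of 14130 genes called by edgeR (246 at an unadjusted p below 0.05, with 0 called by DESeq2 and 0 by limma-voom) and 1.41% without overlap. The log2 fold changes ran from -0.37 (SE 0.293) for *Nr1h3* to 0.16 (SE 0.182) for *Tm7sf2*, with a median of -0.06. For the genes of the previous comparison the values were -0.14 (SE 0.191) for *Insig1*, -0.03 (SE 0.185) for *Fdps*, -0.13 (SE 0.347) for *Scd2* and -0.21 (SE 0.202) for *Mylip*. Each genotype holds 1 suffix-free library here. *Sp3* itself was lower by 0.49 on the log2 scale in *Sp3+/-* without passing the adjustment (unadjusted p = 0.0131). The median over the 29 genes turned to 0.03 without WT 685-2, to 0.03 without WT 697-1 and to 0.04 without *Sp3+/-* 697-4.

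The 3 *Sp3-/-* libraries were then compared with the 4 *Sp3+/-* libraries, which sets the same *Sp3-/-* libraries against a second group and so is not independent of the first comparison. Of the 29 genes, 16 fell and 2 rose, against 25.5% of 14130 genes called, and 22 did not overlap, against 34.2%. The median was -0.77. *Insig1* (log2 fold change -1.22, SE 0.214, adjusted p = 0.005), *Fdps* (log2 fold change -1.24, SE 0.208, adjusted p = 0.00443) and *Scd2* (log2 fold change -1.56, SE 0.392, adjusted p = 0.0188) fell, as did *Mvk* (log2 fold change -0.84, SE 0.239, adjusted p = 0.0289). *Mylip* (log2 fold change 1.46, SE 0.216, adjusted p = 0.00277) and *Ebp* (log2 fold change 0.43, SE 0.101, adjusted p = 0.0145) rose. The SREBP genes again did not pass, with log2 fold change -0.51, adjusted p = 0.091 for *Srebf2* and log2 fold change -0.37, adjusted p = 0.107 for *Srebf1*. With the suffix covariate 3 passed, against 5.4% of all genes, at -0.70 (adjusted p = 0.0325) for *Insig1*, -0.81 (adjusted p = 0.0422) for *Fdps* and 1.52 (adjusted p = 0.036) for *Mylip*. *Ebp* was at 0.40 there (adjusted p = 0.102). With the table name of 697-4 as its suffix edgeR called 0 of the 29 (1 at an unadjusted p below 0.05) and 0% of all genes (1168 genes at an unadjusted p below 0.05). Without 1 library the number called was 6 without 697-2, 8 without 697-5, 10 without *Sp3+/-* 685-5, 10 without *Sp3+/-* 685-7 and 25 without 685-1, against 10.6%, 17.2%, 14.6%, 13.4% and 24.6% of all genes.

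Other genes of the same pathways were counted from lists of 39 genes, of which 38 were tested in *Sp3-/-* against WT. Together 8 rose and 8 fell, against 18.5% of all genes tested, with a median of 0.11 beside -0.00316 over all genes. The same 18.5% is the background for each list below, and the 25% called of the sterol synthesis list lies near it. Of 4 further sterol synthesis genes 1 fell, *Msmo1*, the C4 methyl oxidase that acts with *Nsdhl* (log2 fold change -0.68, SE 0.184, adjusted p = 0.0419), which did not pass with the suffix covariate (log2 fold change -0.54, adjusted p = 0.133). Of 15 tested genes that supply, elongate or desaturate fatty acids 7 fell and none rose. The largest changes were in the elongase *Elovl6* (log2 fold change -1.59, SE 0.423, adjusted p = 0.0413), the desaturase *Fads2* (log2 fold change -1.43, SE 0.369, adjusted p = 0.038) and *Acacb*, the carboxylase of mitochondria (log2 fold change -1.42, SE 0.228, adjusted p = 0.0128). *Acacb* also passed with the suffix covariate (log2 fold change -1.15, adjusted p = 0.0184), whereas *Elovl6* (log2 fold change -0.91, adjusted p = 0.169) and *Fads2* (log2 fold change -0.76, adjusted p = 0.181) did not.

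Of the 9 genes of SREBP processing 3 rose and none fell, namely the site-2 protease *Mbtps2* (log2 fold change 0.68, SE 0.133, adjusted p = 0.0192), the escort protein *Scap* (log2 fold change 0.45, SE 0.106, adjusted p = 0.0294) and *Erlin2* (log2 fold change 0.38, SE 0.084, adjusted p = 0.0262). Only *Mbtps2* of these passed with the suffix covariate (log2 fold change 0.60, adjusted p = 0.0388), beside *Scap* (log2 fold change 0.30, adjusted p = 0.105) and *Erlin2* (log2 fold change 0.31, adjusted p = 0.0523). *Mbtps2* was at 39.9, 34.0, 39.8 and 29.7 CPM in WT, 26.4, 42.6, 44.7 and 42.5 CPM in *Sp3+/-* and 53.5, 62.5 and 55.1 CPM in *Sp3-/-*, and all 3 *Sp3-/-* libraries lay above the rest. Of 10 liver X receptor targets and genes of sterol efflux and esterification 5 rose and none fell, with a median of 1.21. The largest change was in *Abcg1*, a sterol exporter, at 20.4, 12.3, 10.4 and 10.3 CPM in WT, 5.52, 8.93, 9.50 and 23.4 CPM in *Sp3+/-* and 37.4, 106 and 83.7 CPM in *Sp3-/-* (log2 fold change 2.51, SE 0.395, adjusted p = 0.0127, and 1.72 with the suffix covariate, adjusted p = 0.036). It was high in the suffix-free libraries of every genotype and highest in 697-2 and 697-5. *Nceh1*, a cholesterol ester hydrolase, rose (log2 fold change 1.64, SE 0.406, adjusted p = 0.0341, and 0.85 with the suffix covariate, adjusted p = 0.0747), and *Smpdl3a* did not pass (log2 fold change 1.34, adjusted p = 0.0712). *Abcg1*, *Nceh1* and *Smpdl3a* followed the order of the macrophage marker sums across the 3 groups of libraries. So did *Arl4c* (log2 fold change 1.18, adjusted p = 0.0231) and *Soat1* (log2 fold change 1.25, adjusted p = 0.0275), which also rose. Neither passed with the suffix covariate (0.85, adjusted p = 0.0673, and 0.76, adjusted p = 0.125). The part of macrophage RNA in these genes was not tested. *Pltp*, alone of the genes of the list that rose, and *Abca1* did not follow that order. *Arl4c*, *Soat1*, *Pltp* and *Abca1* were named after their values were seen. *Pltp*, a phospholipid transfer protein, was at 59.9, 52.1, 49.1 and 35.1 CPM in WT, 52.6, 50.4, 39.8 and 45.6 CPM in *Sp3+/-* and 131, 90.1 and 133 CPM in *Sp3-/-* and rose (log2 fold change 1.27, SE 0.203, adjusted p = 0.0129, and 1.11 with the suffix covariate, adjusted p = 0.0308). *Abca1*, a sterol exporter, was at 116, 182, 271 and 149 CPM in WT, 178, 221, 191 and 109 CPM in *Sp3+/-* and 295, 352 and 290.0 CPM in *Sp3-/-*. Its *Sp3-/-* libraries lay above all others, and WT 468-4 and *Sp3+/-* 697-4 were the lowest of all 11. It did not pass without the covariate (log2 fold change 0.80, adjusted p = 0.0762) but did with it (log2 fold change 1.47, adjusted p = 0.0144). With the table name of 697-4 as its suffix *Acacb*, *Mbtps2*, *Abcg1*, *Pltp* and *Abca1* no longer passed, with adjusted p from 0.104 to 0.340. *Fads3*, another of the 7 fatty acid genes that fell (log2 fold change -1.01, SE 0.125, adjusted p = 0.00798), was named after its values were seen. It still passed in that fit (log2 fold change -0.998, adjusted p = 0.0358) and with the title suffix (log2 fold change -1.01, adjusted p = 0.00808).

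The promoter windows were searched on both strands for 4 short motifs, over 29 windows of the 23 matched genes and 32851 windows in all. The windows in all were not limited to genes tested here, whereas all 23 matched genes were tested, so the shares below are not like for like. The GC box GGGCGG, the site of Sp factors, was in 69% of the 29 windows and in 35.7% of all windows. The NF-Y box CCAAT was also in 69%, beside 37.4% of all. The E-box CACGTG was in 13.8%, beside 7.15%, and the sterol regulatory element TCACNCCAC in 3.45%, beside 1.24%. By gene, a GC box was in 7 of 10 matched genes that fell in *Sp3-/-* against WT and in 10 of 12 that did not pass. Over all 27025 genes with a window the share was 38.2%. It was also in the printed stretch of *Mylip*, which rose, and of *Srebf2*, which did not pass. None of the 4 motifs contains the letters of another, and a match is a string of letters, not a measured binding site. As variants of these strings were not searched, a window without a match can still hold such a site.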

How the data were processed

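Mesenchymal cells of E15 mouse lungs were profiled by RNA-seq in 11 libraries, grouped by the genotype in the labels. The authors sequenced 50 bp single end reads of TruSeq libraries, mapped them to mm10 with STAR (2.4.5a) and deposited raw counts per gene symbol from htseq-count. Strand setting and annotation are not given in the sources used here. Reads outside genes (38.4% to 40.9% of a library) were left out. Every pair of same-genotype libraries differed by more than counting error (lowest chi-square per degree of freedom 16.6).

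A gene was kept at CPM above 1 in any library and tested with edgeR 4.0.16 (TMM, robust quasi-likelihood) in R 4.3.3, with Benjamini-Hochberg adjustment over all genes and calls below 0.05. *Sp3-/-* against WT used 7 libraries and the other comparisons all 11. SE was derived from the test statistic. Alternatives were DESeq2 1.42.0, limma-voom (3.58.1) with and without a consensus correlation, other scalings, filters and covariates, and each library left out. The consensus correlation took the first number of the library label as its block. The paper describes its own as accounting for repeated measures of patient and does not name this number. Scripts were tested on simulated data. Motifs were counted with Python 3.11.15.

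The genes and lists were chosen with earlier results of these data known. All 29 genes are named, with library values for those called in any comparison and for regulators. Of each further list at most the 3 largest changes are named, besides genes named after their values were seen. Several enzymes of the pathway are not reported here.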

Additional observations from a re-analysis of the deposited data

Results flagged for a closer look

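The highest and lowest library of each genotype with 4 libraries were compared by Dixon's test in 96 sets, one for each gene or list and genotype, and 8 sets had a library past the 95% critical value for 4 libraries. Chance alone gives about 1 in 20 for a single set. The sets share libraries, and the list sums hold genes also tested singly, so the count of 8 cannot be judged against that rate. All 8 were values of the suffix-free libraries WT 468-4 or *Sp3+/-* 697-4.

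*Scd2* stood at 869.8 CPM in *Sp3+/-* 697-4, far below the other 3 *Sp3+/-* libraries (1715 to 1876 CPM), and the 4 fatty acid synthesis genes summed to 1547 CPM there, beside 2705 to 2819 CPM in the others. The same library stood apart in its mesenchymal markers (15631 CPM), macrophage markers (3337 CPM) and lipid storage markers (447 CPM). WT 468-4 stood apart from the other WT libraries in its mesenchymal markers (13639 CPM), macrophage markers (3616.5 CPM) and lipid storage markers (675 CPM).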

How the results depend on the processing

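For *Sp3-/-* against WT the number of genes called was 4297 with DESeq2, 3977 with all 11 libraries in the fit, 1329 with the suffix covariate and 0 among suffix-free libraries (1337 at an unadjusted p below 0.05), and 282 to 4179 with 1 library left out. Of the 29 lipid synthesis genes 19 fell and 2 rose with DESeq2, against 30.6% of all genes. With all 11 libraries in the fit 18 fell and 2 rose, against 28.1%. With limma-voom 11 fell and 1 rose, against 17.8%, and with the consensus correlation 15 fell and 1 rose, against 21.6%. Only 3 were called with the suffix covariate, and 0 to 21 with 1 library left out. The median log2 fold change of the 29 was -0.81 with DESeq2, -0.83 with all 11 libraries and -0.38 with the suffix covariate. It was -0.30 among suffix-free libraries and -1.04 to -0.69 with 1 library left out. With the suffix of 697-4 taken from its table name, a fit chosen after seeing the data, the values were 163 genes, 0 of the 29 and a median of -0.29, and against *Sp3+/-* 0 genes, 0 of the 29 and -0.22. Direction never reversed for a called gene. For *Sp3-/-* against *Sp3+/-* the suffix covariate gave 763 genes, 3 of the 29 and a median of -0.42. The suffix-free libraries, a fit chosen after seeing the data, gave 0 genes by edgeR (1371 at an unadjusted p below 0.05), 0 of the 29 and -0.46. With 1 library left out the ranges were 1490 to 4245 genes, 6 to 25 of the 29 and a median of -1.04 to -0.67. *Sp3+/-* against WT had 0 genes called in every fit run.

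With the first number of the library label as a replicate block, *Sp3-/-* against WT had 4031 genes (28.7%) and 23 of the 29 called, with a median of -0.96. No other library in that fit shares the first number of WT 468-4, so the block took 468-4 out of the genotype difference. The fit was thus close to that without WT 468-4, which called 4179 genes (29.9%) with a median of -0.94 over the 29. It is not a separate test of the calls. Deviations from the genotype means, in libraries of different genotypes that share the first number, correlated at a median of 0.04 (from -0.71 to 0.48, 14 pairs). Those with different numbers correlated at a median of -0.02 (from -0.68 to 0.82, 26 pairs). With means of 3 or 4 libraries these values cannot decide whether the number marks a pairing. As its meaning is not given, the main fits did not use it as one. Of the alternatives, the block fit and limma-voom with the consensus correlation did. Over all alternatives, single calls of the 29 genes against WT were kept or stayed uncalled in 396 cases, were lost in 129 and gained in 26. Precision is limited by 3 or 4 libraries a genotype and by the overlap of genotype with suffix, which leaves a single suffix-free WT library.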
